A study of Capra hircus with 10 samples.

Results

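The miR-424, miR-503, miR-450 and miR-542 precursors form a cluster of miRNA on chromosome X, and their mature products were described here in the mammary gland of lactating goats. The members were all miRNA named miR-424 (miR-322 in rodents), miR-503, miR-450 or miR-542, with either arm, which gave 8 of the 1804 miRNA listed, from 4 precursors. Small RNA was sequenced from whole mammary tissue of 10 goats of the Alpine breed, with 1 library per goat. They were near peak lactation, 48 days (± 2) after kidding when the experiment began. All goats had eaten the same hay and concentrate diet for 2 weeks. In the last 48 h, 4 Control goats (libraries L01, L04, L06 and L10) ate it ad libitum, and 6 food-deprived (FD) goats (L02, L03, L05, L07, L08, L09) received water and no food. The goats had been chosen for similar milk yield, number of lactations and genotype at the αs1-casein gene, so they stand for a narrow range of animals. The libraries held between 4495512 and 9842009 counts each, and the cluster took from 0.00705% to 0.0437% of them.

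A miRNA is cut from a hairpin precursor, whose 2 arms give the 5p and the 3p product. The product that is loaded onto an Argonaute protein pairs with messenger RNA mainly through its seed, bases 2 to 8, and lowers the stability or translation of the target. In the rodent mammary gland the locus of miR-424 and miR-503 is known to be induced by TGF-beta and to take part in involution, the regression of the gland after lactation, with BCL2 and IGF1R among its described targets. In other tissues miR-424 and miR-503 are known as brakes on the cell cycle, and miR-542 is known to target survivin (BIRC5).

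The mature sequences that carry most of the reads of their precursor, and those whose seeds are compared below, are given as the deposited tables spell them, 5′ to 3′, with T for U and with the seed in capitals.
miR-424-5p: cAGCAGCAattcatgttttga
miR-503-5p: tAGCAGCGggaacagtactgcag
miR-503-3p: gGAGTATTgtttctgctgcccgg
miR-424-3p: cAAAACGTgaggcgctgctat
miR-542-3p: tGTGACAGattgataactga
miR-542-5p: tCGGGGATcatcatgtcacgaga
miR-450-5p: tTTTGCGAtgtgttcctaat
chrX_39298-5p: tTTTGCAAcatgttcctgaatat

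The seed of miR-424-5p, AGCAGCA, is that of miR-15 and miR-16, and 6 other listed miRNA carried it, namely miR-15a-5p, miR-15b-5p, miR-16a-5p, miR-16b-5p, miR-195-5p and the predicted chr27_34395-5p. The seed of miR-503-5p differed from it by A8G, with positions counted from 1 at the 5′ end, the miR-424-5p base first. Over the first 21 bases, seed included, 10 were the same. The seeds of miR-450-5p, miR-542-3p and miR-542-5p were carried by 0 other listed miRNA, and that of miR-424-3p by 1 predicted miRNA, chr6_9147-5p. The seed of miR-503-3p was carried by 1 other listed miRNA, miR-496-3p.

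The miR-503 precursor was among those that the authors predicted from the pooled reads, with a miRDeep2 score of 52.6, on the plus strand of chromosome X from 24347602 to 24347665 of the goat genome CHIR_1.0. Its arms were named by the authors after the bovine (3p) and mouse (5p) miRNA. On the same strand, 6346 bases further on, lay a predicted precursor, chrX_39298, from 24354012 to 24354067, with a score of 4.8. The authors' table gives it the same 5p seed as human miR-450b-5p. The 5p products of miR-450 and chrX_39298 had the same base at 15 of the first 20 positions, and their seeds differed by G7A. It is described beside the cluster as a neighbour, chosen after its values were seen, and is not counted among the 8. In the RefSeq annotation of goat assembly ARS1.2, 3 of the 4 precursors were matched by name, and MIR450, MIR542 and MIR424 followed each other between HPRT1 and DLG3, genes for a purine salvage enzyme and a synaptic scaffold protein.

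Levels are given as normalized read counts, the deposited counts divided by the size factor of the library. Most reads of the cluster came from a single product, as miR-424-5p took 61.1% of them over the 10 libraries, followed by miR-542-3p with 17.02% and miR-450-5p with 16.98%. The other 5 products were minor, with 2.51% for miR-424-3p, 1.56% for miR-542-5p, 0.748% for miR-503-3p, 0.0696% for miR-450-3p and 0.0435% for miR-503-5p. By mean level miR-424-5p ranked 144 among the 1804 miRNA, miR-450-5p 229 and miR-542-3p 230, while miR-503-5p ranked 1282. The neighbour chrX_39298-5p ranked 182, between miR-424-5p and miR-450-5p.

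Along the order of mean levels, 4 of the 7 pairs of neighbouring products differed beyond their spread over the 10 libraries (two-sided exact sign-flip permutation test, adjusted over the 7 pairs). The order was taken from the same libraries, and folds come from the mean log2 ratio with 0.5 added to each normalized count. miR-424-5p exceeded miR-450-5p in 10 of 10 libraries, on average 3.41-fold (adjusted p = 0.00456, exact sign-flip permutation test, from the smallest p that 10 libraries allow, 0.00195). miR-450-5p and miR-542-3p stood side by side, with a ratio of 0.929 and miR-450-5p the higher in 3 of 10 libraries (adjusted p = 0.269, same exact test). miR-542-3p was 7.84-fold above miR-424-3p (adjusted p = 0.00456, exact), while miR-424-3p and miR-542-5p were not told apart (1.42-fold, adjusted p = 0.137, exact). miR-542-5p was 2.50-fold above miR-503-3p, in 8 of 10 libraries (adjusted p = 0.0205, exact), and miR-503-3p was 5.80-fold above miR-450-3p in 10 of 10 (adjusted p = 0.00456, exact). The size of this last fold depends on the added 0.5, since the reads were 86 against 8 in all. The last neighbours, miR-450-3p and miR-503-5p, rested on 8 and 5 reads in all and were not told apart (adjusted p = 0.375, exact). Ligation of adapters differs between small RNA sequences, so an order of counts is not an order of molecules.

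The diets were compared first for miR-424-5p. Its normalized read count was 304.1, 485.6, 238.1 and 668.3 in L01, L04, L06 and L10, the Control libraries. In the FD libraries it was 253.0 in L02, 1064 in L03, 1853 in L05, 452.8 in L07, 953.6 in L08 and 290.7 in L09. The groups overlapped, with L03, L05 and L08 above every Control library and L02, L07 and L09 inside the Control range. Control goats had a mean of 424.04 ± 194 (SD, n = 4) and FD goats one of 811 ± 613 (SD, n = 6). The log2 fold change of FD over Control was 0.92, with a standard error of 0.532 and a 95% interval from -0.24 to 2.07, and missed the threshold of 0.1 (adjusted p = 0.422, edgeR quasi-likelihood test). Counting noise was small beside these differences, at 7.67% of the count in the lowest library and 2.50% in the highest.

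miR-450-5p gave much the same order of goats at a lower level. Its normalized read count was 99.5, 134.4, 78.4 and 168.0 in L01, L04, L06 and L10, against 84.3 in L02, 217.8 in L03, 503.6 in L05, 156.8 in L07, 278.8 in L08 and 93.7 in L09. The same 3 FD libraries, L03, L05 and L08, exceeded all Control libraries. The means were 120 ± 39.4 (SD, n = 4) and 222.5 ± 156 (SD, n = 6), with a log2 fold change of 0.87 (standard error 0.459, 95% interval -0.13 to 1.86, adjusted p = 0.397, edgeR).

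miR-542-3p, the main product of its precursor, varied less. It gave 121.6, 166.8, 98.05 and 134.4 in L01, L04, L06 and L10, and 100.3, 246.6, 380.1, 179.6, 268.0 and 115.6 in L02, L03, L05, L07, L08 and L09. Here L07 also lay above every Control library, so 4 of 6 FD goats did, and the other 2 lay in the Control range. The means were 130 ± 28.7 (SD, n = 4) and 215 ± 105.2 (SD, n = 6), and the log2 fold change of 0.70 (standard error 0.343, 95% interval -0.04 to 1.45) again missed the threshold (adjusted p = 0.331, edgeR). Without L05, the highest library, the log2 fold changes were 0.51 for miR-424-5p, 0.48 for miR-450-5p and 0.49 for miR-542-3p.

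**Figure D1:**
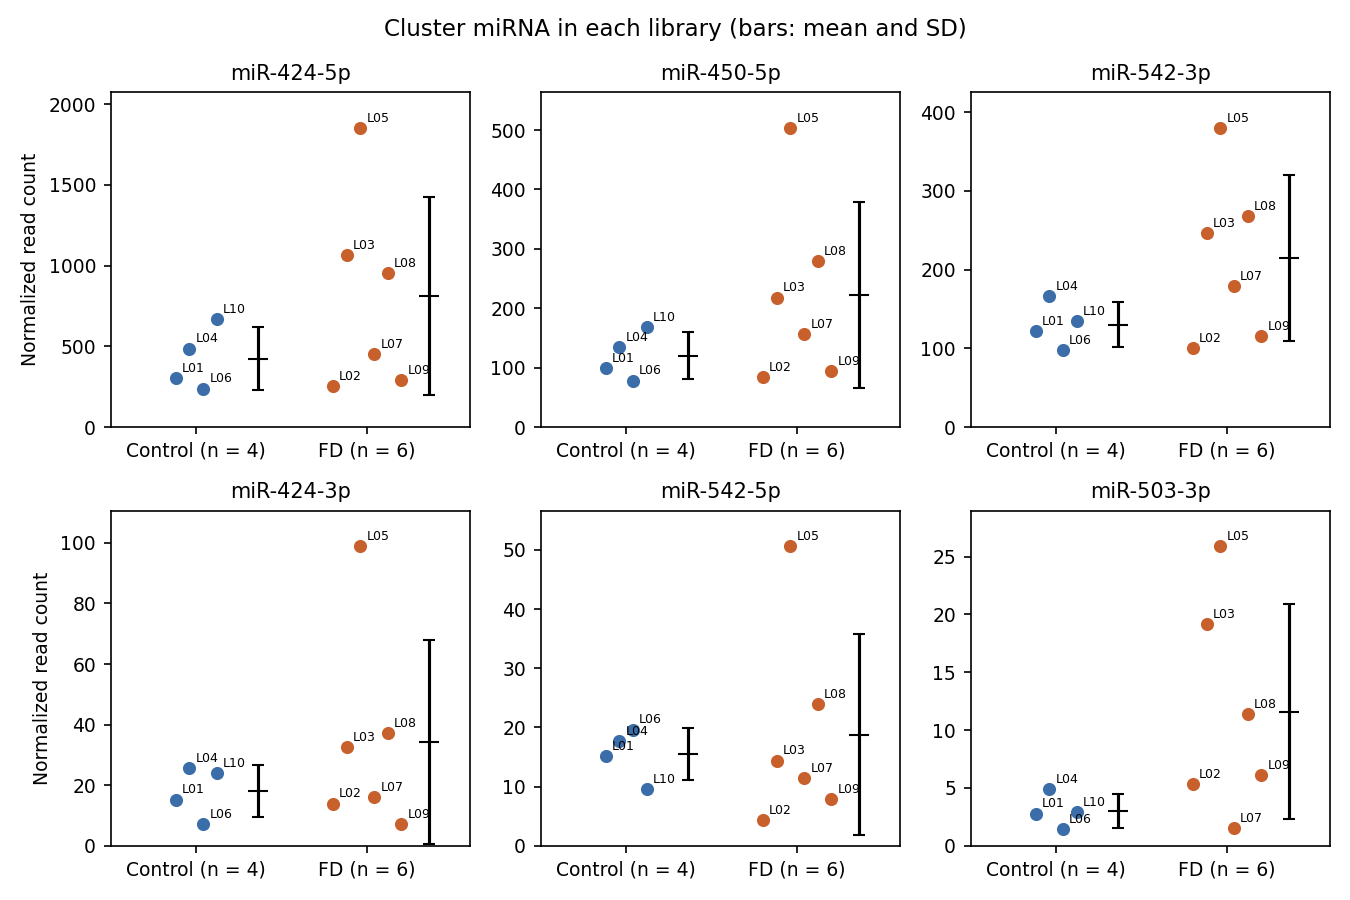
Normalized read counts of the 6 products of the cluster that were read in every library (y axes, linear from 0) for Control (n = 4) and FD goats (n = 6, x axis); each point is a goat with its library name, and bars give the mean and SD. L03, L05 and L08 stood above all Control libraries for miR-424-5p and miR-450-5p, with L05 the highest at 1853 and 503.6, while L02 and L09 stayed among the Control goats.

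The minor arms followed with more noise. miR-424-3p gave 15.2, 25.5, 7.003 and 24.0 normalized counts in L01, L04, L06 and L10, and 13.9, 32.6, 98.8, 15.98, 37.1 and 7.005 in L02, L03, L05, L07, L08 and L09 (log2 fold change 0.86, standard error 0.643, adjusted p = 0.478, edgeR). L05 stood far above the other FD libraries, and the log2 fold change without it was 0.24. miR-542-5p gave 15.2, 17.7, 19.6 and 9.60 in L01, L04, L06 and L10, and 4.27, 14.4, 50.6, 11.4, 23.9 and 7.88 in L02, L03, L05, L07, L08 and L09 (log2 fold change 0.25, standard error 0.576, adjusted p = 0.845, edgeR). L05 and L08 were above every Control library for miR-542-5p, and L02 and L09 below every one. Both passed the filter on low values, a normalized count above 28 in some library, through FD libraries alone, so a high FD value was a condition for their test.

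In counts, 5 of the 8 products were tested and 0 of the 5 passed the adjusted threshold with edgeR, against 0 of 490 (0%) over all tested miRNA. At an unadjusted p under 0.05 edgeR also called 0 of the 5, against 77 of 490 (15.7%). DESeq2 called 0 of the 5 after adjustment, against 27 of 490 (5.51%), and 2 at an unadjusted p under 0.05, against 85 of 490 (17.3%). These 2 were miR-450-5p, with an unadjusted DESeq2 p of 0.0487, and miR-542-3p, with one of 0.0404. limma-voom called 0 of the 5 at either level. The Control and FD ranges were free of overlap in 0 of the 5, against 11 of 490 (2.24%). Of the 5, 3 passed the filter in Control libraries too, miR-424-5p, miR-450-5p and miR-542-3p. The log2 fold change was positive in these 3, with a median of 0.87, beside 245 of 490 (50%) and a median of 0.00 over all tested miRNA. The intervals of these 3 reached from slightly lower in FD goats to 4.20-fold, 3.64-fold and 2.73-fold higher, which is the precision that 4 and 6 goats gave.

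**Figure D2:**
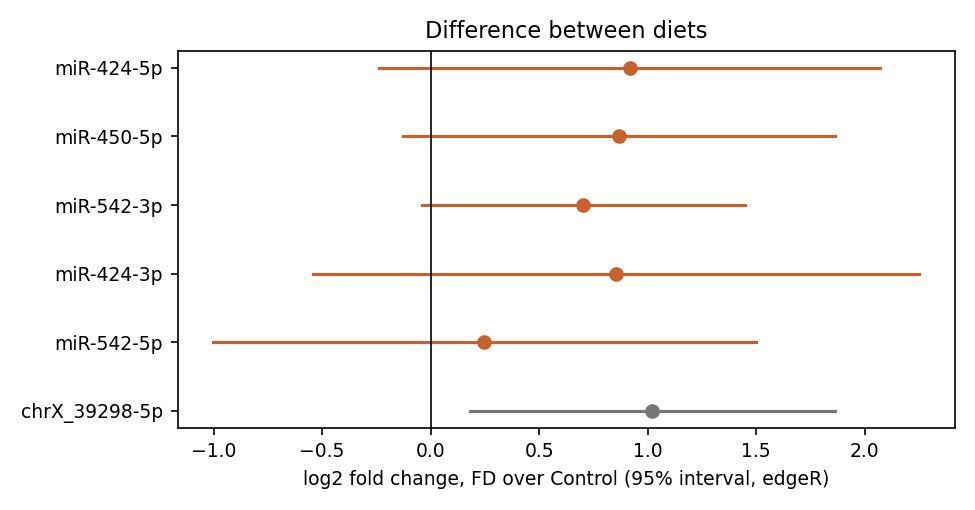
log2 fold change of FD over Control (x axis) for the 5 tested products of the cluster and for the neighbour chrX_39298-5p (y axis); points are edgeR estimates and lines their 95% intervals. The 5 intervals of the cluster include 0. That of chrX_39298-5p, from 0.18 to 1.86, lies above it, but this neighbour was chosen after its values were seen (adjusted p = 0.269, edgeR).

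The miR-503 products were too scarce for the filter and are given as a description. miR-503-3p was read 2, 5, 1 and 3 times in L01, L04, L06 and L10, and 5, 20, 22, 2, 19 and 7 times in L02, L03, L05, L07, L08 and L09. After scaling, 5 of 6 FD libraries lay above all Control libraries, and the mean normalized count was 2.99 ± 1.44 (SD, n = 4) in Control goats against 11.6 ± 9.30 (SD, n = 6) in FD goats. In the fit without a filter, which ran over all 1804 miRNA, the log2 fold change was 1.83 with a standard error of 0.591 (unadjusted p = 0.0034, adjusted p = 0.175, edgeR). In that fit 4 of the 8 products, miR-503-3p, miR-424-5p, miR-450-5p and miR-542-3p, had an unadjusted p under 0.05, against 178 of 1804 miRNA (9.87%), and 0 of the 8 passed the adjusted threshold, against 5 of 1804 (0.277%). Only 1103 to 1356 of the 1804 were read in a library, so these shares include unread miRNA and are a loose comparison. With the filter miR-424-5p, miR-450-5p and miR-542-3p had an unadjusted p of 0.109, 0.0824 and 0.0614 (edgeR). Without it they had 0.00749, 0.00772 and 0.0112 (edgeR), and what lowered them was not tested. miR-503-5p was read once in L06, L03 and L05, 2 times in L08 and 0 times in the other 6 libraries. miR-450-3p was read once in L10, L02, L03 and L07, 2 times in L05 and L08 and 0 times in the other 4. A count of 0 allows up to 3 reads in that library, and such limits cover counting error only, since no molecular identifiers are described that would tell molecules from amplified copies.

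The neighbour chrX_39298-5p was read more than miR-450-5p. It gave 178.3, 214.9, 162.5 and 290.9 normalized counts in L01, L04, L06 and L10, and 193.2, 495.1, 815.5, 364.5, 548.6 and 195.3 in L02, L03, L05, L07, L08 and L09. L03, L05, L07 and L08 stood above all Control libraries, and L02 and L09 within their range. The means were 212 ± 57.2 (SD, n = 4) and 435 ± 238 (SD, n = 6), and the log2 fold change of 1.02 (standard error 0.388, 95% interval 0.18 to 1.86) had an unadjusted p of 0.0212 and an adjusted p of 0.269 (edgeR). With DESeq2 its adjusted p was 0.104. An unadjusted edgeR p under 0.05 was reached by 77 of 490 tested miRNA (15.7%). These values of the neighbour are a description, because it was chosen after they were seen.

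The spread between FD goats was wide in the cluster. The SD of the log2 normalized count (0.5 added to each count) among FD goats was 1.14 for miR-424-5p, 0.977 for miR-450-5p and 0.740 for miR-542-3p, which ranked 13, 19 and 42 from the top among the 490 tested miRNA, beside a median of 0.336. For the minor arms it was 1.30 for miR-424-3p and 1.20 for miR-542-5p, which are not ranked, since only high FD libraries brought both past the filter. Among Control goats the SD was 0.667, 0.480 and 0.317 for miR-424-5p, miR-450-5p and miR-542-3p, at ranks 72, 123 and 253, beside a median of 0.324. These 3 products had a higher SD in FD than in Control goats, as had 243 of the 490 tested miRNA (49.6%), and this difference in spread was not tested. Over the 10 libraries the highest value of miR-424-5p was 7.78 times the lowest, that of miR-450-5p 6.42 times and that of miR-542-3p 3.88 times, beside a median of 2.17 times over the tested miRNA.

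**Figure D3:**
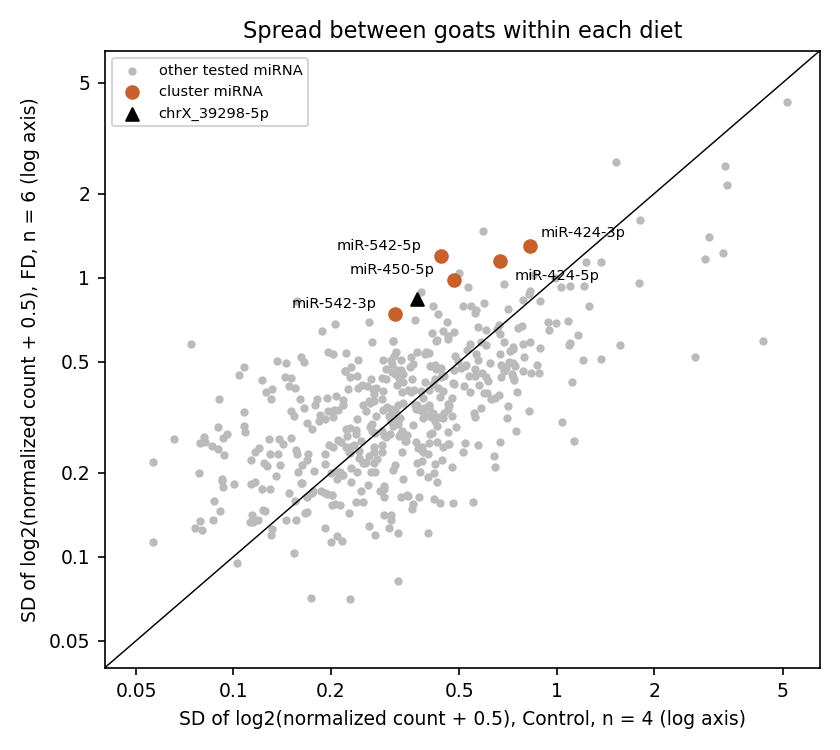
SD of the log2 normalized count (0.5 added) among Control goats (x axis, n = 4) and among FD goats (y axis, n = 6), both on log axes, for the 490 tested miRNA; large points are the 5 tested products of the cluster, the triangle is chrX_39298-5p and the line marks equal SD. The cluster lies above the line, at 0.740 to 1.30 among FD goats; miR-424-3p and miR-542-5p were tested only because of high FD libraries.

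The 5 tested products, from 3 of the 4 precursors, varied together from goat to goat. Over the 10 libraries, Pearson's r between the log2 normalized counts of the 5 tested products ran from 0.653 to 0.980 over 10 pairs, with a median of 0.920, and 10 of 10 pairs passed the threshold of 0.05 after adjustment over the pairs (two-sided permutation test, 100000 permutations). Only high FD libraries brought miR-424-3p and miR-542-5p past the filter, so a high FD value was a condition for their pairs. The pairs among miR-424-5p, miR-450-5p and miR-542-3p are free of this limit, with r from 0.950 to 0.980. Their median r with the other 489 tested miRNA was 0.016, -0.0261 and -0.0147. Single miRNA from outside the cluster came as close, since miR-28-5p gave r = 0.952 with miR-542-3p. No share of passing pairs over all tested miRNA was computed for this count of pairs or those below. miR-424-5p and miR-450-5p, from different precursors, were the closest pair, with r = 0.980 and Spearman's rho = 0.976 (adjusted p = 0.000133 for r, permutation). miR-450-5p and miR-542-3p gave r = 0.968, and miR-424-5p and miR-542-3p r = 0.950. The arms of miR-424 gave r = 0.936, and those of miR-542 r = 0.729 (adjusted p = 0.0208, permutation). With Spearman's rho, which ran from 0.455 to 0.976, 6 of the 10 pairs passed, and the 4 that missed were those of miR-542-5p.

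The relations held with the diet means removed and among FD goats. With the mean of each diet removed, r ran from 0.695 to 0.978 and 10 of 10 pairs passed (permutation test), and among the 6 FD goats alone it ran from 0.886 to 0.990, again with 10 of 10 (exact permutation test). Both counts include the pairs of miR-424-3p and miR-542-5p, which passed the filter through FD libraries alone. Among miR-424-5p, miR-450-5p and miR-542-3p, r ran from 0.949 to 0.978 with diet means removed and from 0.977 to 0.990 among FD goats. The 4 Control goats were too few for a correlation of their own. Scaled by library totals in place of size factors, 10 of 10 pairs passed as well. Without the 2 libraries farthest from the median, r ran from 0.214 to 0.982, and that of the miR-542 arms fell to 0.336, so that the relation of the miR-542 arms rests on those libraries; 3 of the 4 pairs of miR-542-5p fell below 0.5. With single libraries left out, 6 pairs passed without L05 and 6 without L08.

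**Figure D4:**
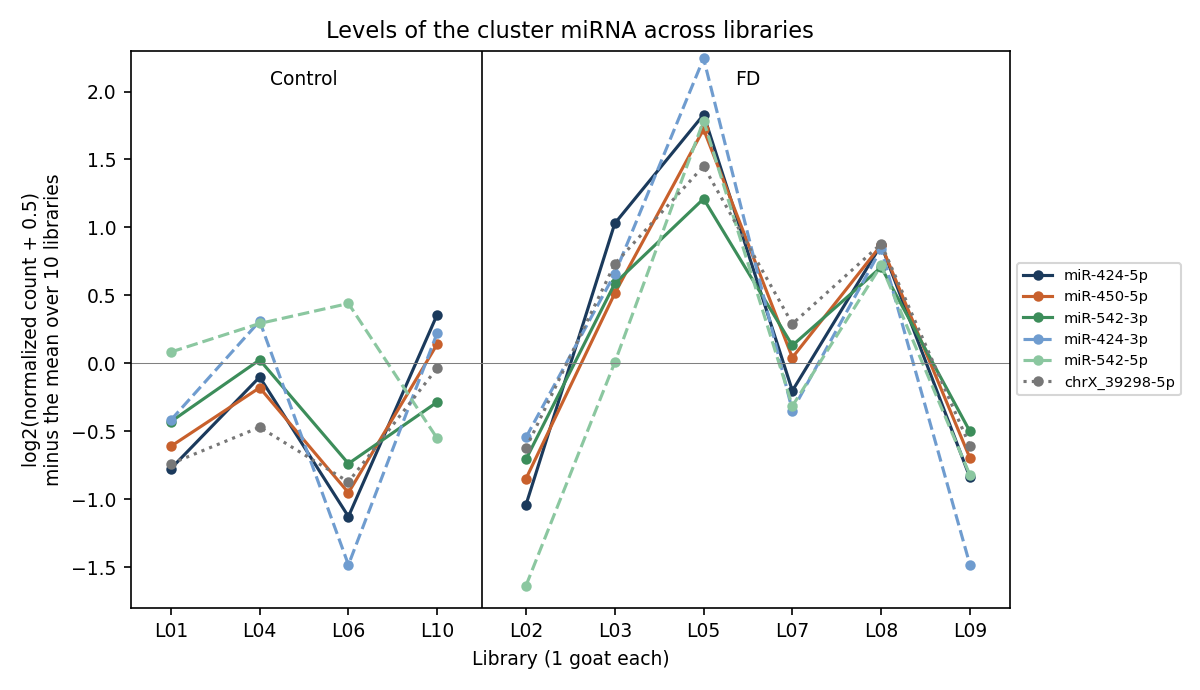
log2 normalized count (0.5 added) minus its mean over the 10 libraries (y axis) for the 5 tested products of the cluster and chrX_39298-5p, by library (x axis), Control left and FD right; lines join the values of the same product and carry no order of time. L05 was the highest library for each product, and L03 and L08 followed for miR-424-5p, miR-450-5p and miR-542-3p.

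Since the neighbour was chosen after its values were seen, its likeness to the cluster is given as a description, with no test. Pearson's r of chrX_39298-5p over the 10 libraries was 0.971 with miR-450-5p, 0.959 with miR-542-3p, 0.951 with miR-424-5p, 0.873 with miR-424-3p and 0.611 with miR-542-5p. Among the other 489 tested miRNA, the 3 with a pattern most like miR-424-5p were miR-450-5p, chrX_39298-5p and miR-542-3p. For miR-450-5p they were miR-424-5p, chrX_39298-5p and miR-542-3p, and for miR-424-3p they were miR-450-5p, miR-424-5p and miR-542-3p (r = 0.938, 0.936 and 0.905). For miR-542-3p they were miR-450-5p, chrX_39298-5p and, from outside the cluster, miR-28-5p (r = 0.952). miR-542-5p stood apart, with miR-143-3p, miR-214-3p and miR-214-5p as the closest (r = 0.834, 0.811 and 0.799). These likenesses were chosen as the highest of 489 and are given without a test.

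The arm that dominated was the same in each library for miR-424, miR-450 and miR-542. The 5p arm took 96.0% of the miR-424 reads and 99.6% of the miR-450 reads, and was the higher in 10 of 10 libraries for both. For miR-542 the 3p arm led in each library, and the 5p arm took 8.38% of the reads. For miR-503 the 5p arm had 5 reads against 86, and the arms were level in L06 with 1 read each.

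The ratio of the arms is taken within a library and needs no scaling. The mean log2 ratio of 5p to 3p (0.5 added to both) of miR-424 was 4.55 ± 0.366 (SD, n = 4) among Control goats and 4.69 ± 0.447 (SD, n = 6) among FD goats, a difference of 0.13 (p = 0.652, two-sided exact permutation test over 210 splits). For miR-542 it was -3.04 ± 0.607 (SD, n = 4) and -3.76 ± 0.520 (SD, n = 6), a difference of -0.71 (p = 0.0762, adjusted p = 0.181, exact). For miR-503 the difference was -1.24 (p = 0.0905, adjusted p = 0.181, exact) and for miR-450 -0.11 (p = 0.824, exact), both with a handful of reads on the minor arm. Without L06 the difference was -0.46 for miR-542 and -0.53 for miR-503. The unadjusted p fell to 0.0357 without L04 and 0.0238 without L07 for miR-503, and to 0.0318 without L05 for miR-542 (exact permutation tests), with adjusted p of 0.143, 0.0952 and 0.127. The ratio differed between the diets in 0 of the 4 precursors after adjustment, and 0 of the 4 had an unadjusted p under 0.05.

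**Figure D5:**
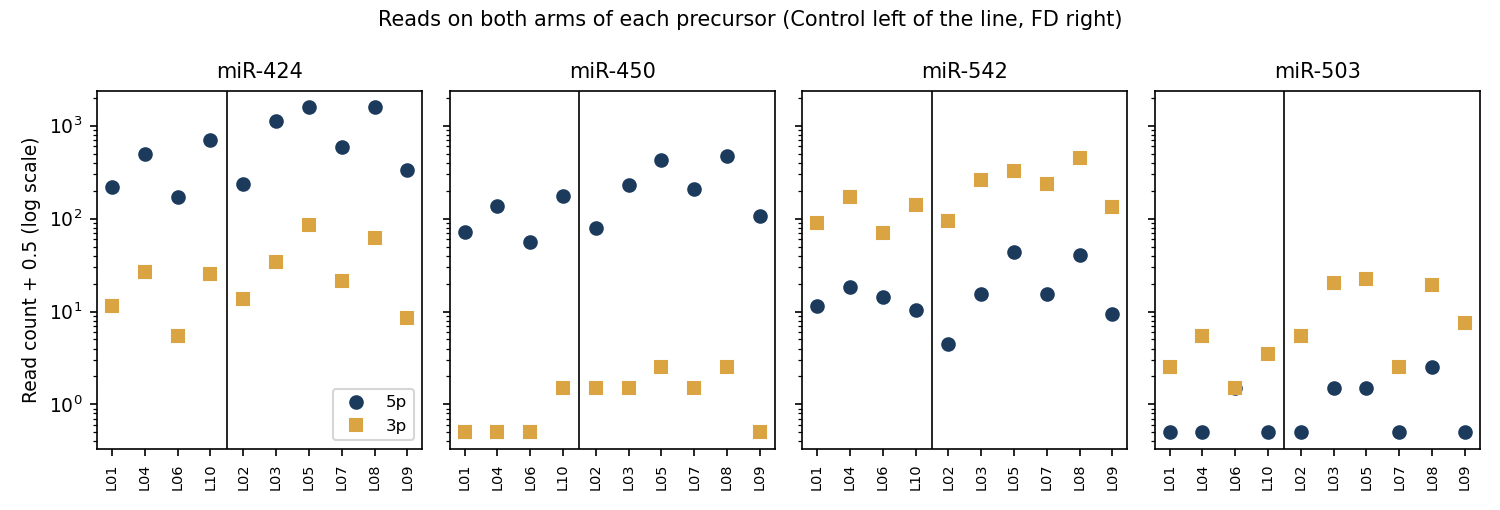
Read counts of the 5p arm (circles) and 3p arm (squares) of each precursor, 0.5 added, on a log y axis, for each library (x axis), with Control libraries left of the line and FD libraries right of it. The 5p arm of miR-424 and miR-450 and the 3p arm of miR-542 led in each of the 10 libraries, while both arms of miR-503 were read at most 22 times.

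The miRNA that share or resemble the miR-424-5p seed were together far more abundant. Of the list of 6 miRNA related to miR-16 by name, 6 were tested and 6 had a positive log2 fold change, from 0.27 to 0.44 with a median of 0.39, but 0 passed the adjusted threshold and 2 of 6 had an unadjusted p under 0.05 with edgeR (15.7% over all tested miRNA), and DESeq2 and limma-voom also called 0. miR-16a-5p, the most abundant, had a normalized count of 23977 ± 4028 (SD, n = 4) among Control goats and 31688 ± 5034 (SD, n = 6) among FD goats (log2 fold change 0.39, standard error 0.155, adjusted p = 0.269, edgeR). miR-497-5p gave 4223 ± 778 (SD, n = 4) and 5134 ± 1053 (SD, n = 6) (0.27, adjusted p = 0.457, edgeR), and its deposited sequence has GCAGCAC at bases 2 to 8. miR-16b-5p gave 3135 ± 531.6 (SD, n = 4) and 4158 ± 808 (SD, n = 6) (0.39, adjusted p = 0.304, edgeR). miR-424-5p made up from 0.705% to 3.58% of its summed level with this list in a library.

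Other miRNA known from chromosome X in mammals, taken by name, showed no common direction. Of 41 listed, 30 were tested, 18 had a positive and 12 a negative log2 fold change, with a median of 0.05 and a range from -0.55 to 1.70. With edgeR 0 passed the adjusted threshold and 8 of 30 had an unadjusted p under 0.05, against 15.7% of all tested miRNA. The most abundant were miR-98-5p (log2 fold change 0.06, adjusted p = 0.844, edgeR), a member of the let-7 family, and miR-660-5p (-0.34, adjusted p = 0.237, edgeR), and the smallest p was that of miR-188-5p (-0.55, adjusted p = 0.195, edgeR). DESeq2 called 1 of the 30, miR-222-3p (log2 fold change 0.79, adjusted p = 0.0919), against 5.51% of all tested miRNA.

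In whole tissue, fewer cells of a type and less RNA per cell cannot be told apart, so miRNA known as markers of cell types are given beside the cluster. Those tested were 6 epithelial, 2 endothelial, 4 stromal and smooth muscle, 2 myeloid, 3 erythroid markers and 1 secretory marker. No marker was at 0 throughout, and 0 of those tested passed the adjusted threshold with edgeR, while DESeq2 called 3, miR-126-3p (adjusted p = 0.0688), miR-223-3p (0.0664) and miR-223-5p (0.0919). Over all tested miRNA edgeR called 0 of 490 (0%) and DESeq2 27 of 490 (5.51%). In the edgeR fit without a filter miR-223-3p passed the adjusted threshold (adjusted p = 0.0404, edgeR), where 5 of 1804 miRNA (0.277%) did. An unadjusted edgeR p under 0.05 was reached by 77 of 490 (15.7%). Of the 6 epithelial markers, the miR-200 family and miR-205-5p, 1 had a positive and 5 a negative log2 fold change, with 2 at an unadjusted p under 0.05, and they summed to 220473 to 244168 normalized counts in Control and 172861 to 242470 in FD libraries. The secretory miR-148a-3p (log2 fold change -0.31) ran from 1220933 to 1527713 in Control and from 626225 to 1402563 in FD libraries. L08 was the lowest library for both, with 914351 for miR-148a-3p in L05. The epithelial sum was 193005 in L05 and 228614 in L03, the latter inside the Control range. In L02, L07 and L09 it was 222205, 209489 and 242470. For miR-148a-3p the FD libraries low for the cluster, L02 and L09, had 1402563 and 1134781. L07 had 1397121 and L03 had 1150059. A link of these values to the cluster was not tested.

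The 2 endothelial miR-126 products both had a positive log2 fold change and an unadjusted p under 0.05 (15.7% over all tested miRNA), and summed to 117544 to 144955 in Control and 136542 to 197735 in FD libraries. Of the 4 stromal and smooth muscle markers found of 5, led by miR-143-3p, 3 had a positive and 1 a negative log2 fold change, and the sums were 686763 to 924238 and 576426 to 1130598, with the maximum in L05, the library that was also highest for the cluster. L03 and L08, which followed for miR-424-5p, had sums of 881247 and 825207, and L07 had 837190. L02 and L09, the lowest FD libraries for miR-424-5p, also had the lowest FD sums, 576426 and 664402. Among Control libraries L04 had 924238, above L03 and L08. L10, the highest Control library for miR-424-5p, had 693026. The 2 myeloid markers found of 4, both arms of miR-223, had log2 fold changes of 1.15 and 0.996, both with an unadjusted p under 0.05, and summed to 168 to 423 in Control and 346 to 925 in FD libraries, the lowest FD sum in L05 and the highest in L03. The 3 erythroid markers found of 4 all had a positive log2 fold change, 1 with an unadjusted p under 0.05, and summed to 3750 to 6061 and 5961 to 8756. The part of these cells in the values of the cluster was not tested.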

How the data were processed

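Small RNA libraries of 10 goat mammary glands were compared between 4 Control and 6 FD goats, as the labels group them. The values used were read counts per mature miRNA, which the authors deposited without normalization. To make them, the authors called bases with CASAVA 1.8.2 (per the labels), trimmed adapters with Cutadapt, kept reads of 17 to 28 nt, mapped them to CHIR_1.0 and counted them with miRDeep2's quantifier on known and predicted precursors. The score is the miRDeep2 score of a predicted precursor, deposited by the authors and computed on the pooled reads. Pooled reads give no replicate value, and similar mature sequences can share reads.

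Normalized counts are counts divided by DESeq2 size factors over 1804 miRNA. The 490 miRNA whose highest normalized count exceeded 28 were tested with edgeR 4.0.16 (TMM, quasi-likelihood, two-sided). No covariates were used, p-values were adjusted by Benjamini-Hochberg, and the threshold was 0.1. Single values were tested by exact permutation over libraries and correlations by 100000 permutations, with a threshold of 0.05. Alternatives were DESeq2 1.42.0, limma-voom 3.58.1, other scalings, filters and pseudocounts, known miRNA alone, each library left out and, chosen after seeing the data, robust dispersions. Software was R 4.3.3 and Python 3.11.15 with scipy 1.17.1. In a simulation of 490 miRNA of which 200 were changed, edgeR recovered 37% of changes of 1.5-fold, 86% of 2-fold and 98.5% of 3-fold.

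The cluster, the lists, the markers and the tests were chosen with earlier results of these data known. Each product of the cluster was named, and of both related lists the 2 most abundant miRNA and the 2 with the smallest p. The markers miR-142-3p, miR-142-5p, miR-199a-3p and miR-486-5p were not matched by name. Messenger RNA was not analysed here.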

Additional observations from a re-analysis of the deposited data

Results flagged for a closer look

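In 26 groups of values, 4 held a library whose gap to the nearest other library exceeded Dixon's 95% limit for its group. Chance gives about 1 in 20 for independent, normally distributed values. The groups hold products that vary together and counts near 0, so the 4 are a description and are not set against that rate. For miR-424-3p, FD library L05 had 98.85 normalized counts, and the gap was 0.672 of the range of the FD group. For the log2 arm ratio of miR-450, FD library L02 had 5.728, the lowest of the group, with a gap of 0.682 of the range, and it rested on 1 read of the 3p arm. In Control goats, miR-503-5p had 1.401 normalized counts in L06 and miR-450-3p had 0.9602 in L10, each a single read beside 0 in the other 3 libraries. With such values the gap is always the whole range.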

How the results depend on the processing

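The number of products of the cluster past the adjusted threshold was 0 in each fit run. The log2 fold change stayed positive in each fit for miR-424-5p (0.51 without L05 to 1.15), miR-450-5p (0.48 to 1.03), miR-542-3p (0.49 to 0.84) and miR-424-3p (0.24 to 1.06), and the smallest adjusted p over these fits were 0.236, 0.204, 0.191 and 0.317. That of miR-542-5p turned to -0.0788 with limma-voom, ran from -0.002 (without L10) to 0.4307 with single libraries left out, and miR-542-5p was not tested without L05. At a filter of 100 neither miR-424-3p nor miR-542-5p was tested. An unadjusted p under 0.05 was reached by 2 products with DESeq2, 4 without a filter, 3 without L02 and 2 without L09. The arm ratio difference of miR-450 ran from -0.2527 to 0.175 with single libraries left out, was above 0 without L02 (0.1692) and L04 (0.175), and was 0.2766 with a pseudocount of 1. The cause of these changes was not tested. Pairs of products that correlated numbered from 6 to 10 with single libraries left out. The count of other chromosome X miRNA called was 1 with DESeq2. The biological coefficient of variation was 0.560 for miR-424-5p, beside a median of 0.244 over the tested miRNA, so the recovery in simulation does not carry over to it, and the minor arms also carry counting noise. No paired analysis was possible because the labels give the goats no shared replicate numbers.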

Other observations

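Outside the cluster and its neighbour, the tested miRNA most like miR-424-5p over the 10 libraries were miR-16a-3p (r = 0.902), miR-195-5p (0.886) and miR-101-5p (0.875). For miR-450-5p they were miR-28-5p (0.908), miR-16a-3p (0.908) and miR-221-3p (0.892). For miR-542-3p they were miR-28-5p (0.952), miR-27a-3p (0.922) and miR-199a-5p (0.921), the last being among the stromal and smooth muscle markers. For miR-424-3p they were miR-16a-3p (0.884), miR-24-5p (0.883) and miR-454-3p (0.882). The closest of 489 were taken after their values were seen, so these are descriptions without a test, and scaling is shared by all miRNA of a library. The 3p arm of the neighbour, chrX_39298-3p, had 31 reads against 3776 of the 5p arm, which took 99.2%, close to the 99.6% of miR-450.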
